A study of Mus musculus with 2 samples.

Results

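Vascular smooth muscle cells and pericytes, together the mural cells of the kidney's blood vessels, were taken from scRNAseq libraries of 1 control and 1 ischemic mouse kidney. They were chosen by measured values: a cell was a member when its UMIs (unique molecular identifiers, each standing for 1 captured transcript) of Acta2, Tagln, Myh11, Rgs5 and Notch3 summed to at least 5 and to at least 0.1% of its total. This sum also had to exceed that of the fibroblast genes Dcn, Col1a1, Col1a2 and Pdgfra and that of the endothelial genes Pecam1, Kdr, Flt1, Emcn and Plvap, and the leukocyte gene Ptprc had to be at 0. Of 25702 cells, 293 were members, with 119 of 12586 cells in the control library (0.945%, 95% exact Clopper-Pearson interval 0.784 to 1.13) and 174 of 13116 in the ischemic library (1.33%, 1.14 to 1.54). Counting only members with at most 1 UMI of those fibroblast and endothelial genes, the shares were 0.699% and 0.740%. This limit is passed more easily by deeper cells, and the ischemic members were the deeper (median 8227 UMIs against 5714). The part of depth in the smaller gap was not tested. With at least 10 UMIs and 0.2% of the mural genes the shares were 0.866% and 1.20%. With at least 1000 UMIs per cell they were 1.31% and 2.17%. Because the 15 genes of the rule chose the cells, their levels are given below only as a description. They are left out of every count and median of a gene list.

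Both kidneys are labelled as male, wildtype C57BL/6J, at an age of 19 weeks. By its label the ischemic kidney had 27 min of left-sided ischemia followed by reperfusion, and the control was the contralateral kidney without injury. The sources used here do not state outright that both kidneys came from 1 animal, and the general surgical methods of the study, which name removal of the contralateral kidney and a slightly shorter clamping time, describe another version of the model. Both were harvested at 24 h, after the animal had been perfused with PBS. Each condition was 1 kidney and 1 library, so no difference below has a replicate check or a test, a library effect cannot be told apart from ischemia, and each interval covers counting error only.

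Smooth muscle cells wrap arteries and arterioles and set the flow into the glomerulus by contracting, using a myosin motor that slides on smooth muscle actin and is switched on when myosin light chain kinase phosphorylates its light chains. Pericytes lie singly along capillaries, where they stabilise the endothelium through PDGF and Notch signals, and mesangial cells are the related cells inside the glomerulus. In the wall of the afferent arteriole some cells of this lineage make renin, the enzyme that starts the angiotensin cascade.

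The members held 769658 UMIs in the control and 1629952 in the ischemic library. The median member had 5714 UMIs and 2099 genes in the control and 8227 UMIs and 2774 genes in the ischemic library, so the ischemic members were the more deeply covered. The median share of mitochondrial UMIs was 9.16% in the control and 8.93% in the ischemic members. Levels are given as CPM, the UMIs of a gene per 1000000 UMIs summed over the members of a library, since these reads count the 3′ ends of transcripts and not their length. The libraries shared 88 barcodes as deposited and 58 among the cells kept, of which 0 were members.

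The sum of the 5 mural genes had a median of 76 UMIs or 1.33% of the cell's UMIs in the control members and of 122.5 UMIs or 1.61% in the ischemic members. At the edge of the rule, 9 control and 11 ischemic members had 5 to 9 UMIs of these genes, while 6 control and 8 ischemic cells were outside only because they had 3 or 4. The lowest share inside was 0.113% in the control and 0.112% in the ischemic library, and the highest share of a cell left out for its share alone was 0.0834% and 0.0978%. Of the cells past both minima, 123 in the control and 181 in the ischemic library, 4 and 7 failed because of the fibroblast, endothelial or leukocyte genes.

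Mural markers that the rule did not use were far higher in the members than outside them. Cnn1 (calponin, an actin-binding regulator of contraction) was at 257 CPM in control members and 248 CPM in the ischemic members, and at 0.202 and 0.268 CPM in all other cells. Higd1b, a pericyte marker, was at 142 and 114 CPM in the members and at 0.0888 and 0.142 CPM in the other cells. These levels pool all members, of which 6 in the control and 17 in the ischemic library had no UMI of Rgs5 or Notch3. Some were members by Tagln almost alone. A control member with 32 UMIs of Tagln and an ischemic member with 35 had 0 of the other mural genes of the rule. Ischemic members with 123 and 108 had 4 and 2 of Acta2 and 0 of the rest. Whether such cells were mural was not tested. The 8 fibroblast markers summed to 109 CPM in control members and 154 CPM in the ischemic members, while those of the other cells summed to no more than 34.3 CPM in either library. The 4 of them that the rule did not use summed to 3.90 and 2.45 CPM in the members and to 13.9 and 10.3 CPM outside, with Lum and Dpt at 0 in the members of both libraries. The 7 T and B cell markers summed to 7.80 and 6.75 CPM in the members against 9.86 and 11.8 CPM outside, led by Trac, with Cd3e, Cd3d and Cd79a at 0 in the members of both libraries. The 9 macrophage markers summed to 16.9 CPM in control members and 33.1 CPM in the ischemic members, against 451 and 999 CPM in the other cells, with Cd74 and Csf1r as the most abundant in turn and C1qc and Adgre1 at 0 in the members of both.

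Of 20 genes of the contractile apparatus outside the rule, 19 had at least 100 UMIs over the members of both libraries, the minimum used throughout, and 0 were 2-fold apart. Over all 3801 genes with that many UMIs 3.58% were 2-fold apart in either direction, so a count of 0 among 19 is near that share. Their median log2 ratio, ischemic over control, was -0.05, beside 0.09 over all those genes. Tpm2, a tropomyosin that lies along the actin filament, was at 4254 CPM in control members and 3690 CPM in the ischemic members (ratio 0.867, 0.831 to 0.905). Mylk, the myosin light chain kinase, was at 1615 and 1831 CPM (ratio 1.13, 1.06 to 1.21). Myl9, the regulatory light chain it phosphorylates, was at 2708 and 2369 CPM (ratio 0.875, 0.829 to 0.923). In members with at most 1 UMI of the fibroblast and endothelial genes of the rule, Tpm2 had a ratio of 1.10 and Myl9 of 1.09. Without the 5% deepest members these were 1.08 and 1.03, so neither gene has a settled direction. Lmod1, which nucleates actin filaments, was at 386 and 320 CPM, and Pln, which restrains the calcium pump of the sarcoplasmic reticulum, at 438 and 416 CPM. The intervals of these last 2 ratios reached from 0.718 to 0.960 and from 0.832 to 1.09. Of the genes that chose the cells, Acta2 (smooth muscle actin, chr19:34241090-34255590, mm10) was at 7098 and 8327 CPM, Tagln (transgelin, an actin-binding protein) at 5101 and 5241 CPM, and Myh11 (smooth muscle myosin heavy chain) at 2845 and 2030 CPM. Myh11 was thus the lower in the ischemic members and Acta2 the higher, and neither was 2-fold apart.

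Serum response factor, with its partner myocardin, drives many contractile genes through the CArG box, written CC, 6 bases that are A or T, and GG, which reads the same way on both strands. Promoters of 300 bases (250 before and 50 after the gene's start, RefSeq, GRCm38.p6) were at hand for 20 of the 23 contractile genes. An exact CArG box lay in 3 of these 20 genes, Myl9, Myl6 and Vcl, against 1.81% of the 27025 genes of the table. They are shown 5′ to 3′ on the gene's strand, with the CArG box in capitals, because they are the contractile genes in which these letters stand in this window.

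Myl9, chr2:156775214-156775513, strand +: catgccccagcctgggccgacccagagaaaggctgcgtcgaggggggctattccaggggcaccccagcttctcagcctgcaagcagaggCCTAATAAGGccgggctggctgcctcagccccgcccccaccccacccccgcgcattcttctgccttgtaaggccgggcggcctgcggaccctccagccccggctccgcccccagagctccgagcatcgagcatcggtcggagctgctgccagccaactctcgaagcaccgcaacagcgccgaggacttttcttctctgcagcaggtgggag
Myl6, chr10:128492960-128493259, strand -: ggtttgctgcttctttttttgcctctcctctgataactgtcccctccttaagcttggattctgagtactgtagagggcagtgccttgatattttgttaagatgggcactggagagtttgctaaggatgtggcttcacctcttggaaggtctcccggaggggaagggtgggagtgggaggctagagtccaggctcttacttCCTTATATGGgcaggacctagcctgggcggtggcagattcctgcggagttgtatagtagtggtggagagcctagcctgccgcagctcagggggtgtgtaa
Vcl, chr14:20929148-20929447, strand +: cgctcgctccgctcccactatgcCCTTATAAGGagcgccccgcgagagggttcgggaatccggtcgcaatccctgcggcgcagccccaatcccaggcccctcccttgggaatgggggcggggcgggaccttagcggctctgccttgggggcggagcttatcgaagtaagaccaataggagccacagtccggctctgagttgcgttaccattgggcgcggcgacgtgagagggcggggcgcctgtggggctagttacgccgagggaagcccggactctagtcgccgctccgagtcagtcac

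Counted from the RefSeq starts, the box began 161 bases before the start of Myl9, 50 before that of Myl6 and 227 before that of Vcl. GENCODE M21 has the same start for Vcl and places the 5′ end of Myl9 44 bases and that of Myl6 1136 bases further upstream, so by that annotation the Myl6 window lies inside the gene, where another of its transcripts starts 22 bases from the RefSeq start. Myl6, the essential myosin light chain, was at 4371 CPM in control members and 4915 CPM in the ischemic members (ratio 1.12, 1.08 to 1.17). Vcl (vinculin, which ties actin to adhesion sites) was at 222 and 285 CPM (ratio 1.28, 1.07 to 1.54), and neither was 2-fold apart. Myocd, which encodes myocardin, was at 112 CPM in control members and 105 CPM in the ischemic members, and Srf, with 14 and 27 UMIs, was too sparse to compare.

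Of 16 pericyte genes outside the rule, 11 had enough UMIs, 0 were 2-fold apart, 4 had a ratio above 1 and the median log2 ratio was -0.21, beside 3.58% of all genes 2-fold apart and 60.6% with a ratio above 1. Ndufa4l2, a mitochondrial subunit gene typical of pericytes, was at 576 CPM in control members and 393 CPM in the ischemic members (ratio 0.683, 0.604 to 0.773). Cox4i2, a variant subunit of cytochrome oxidase, was at 277 and 183 CPM (ratio 0.661, 0.552 to 0.791). Pdgfrb, the PDGF receptor through which pericytes are recruited, was at 217 and 222 CPM (ratio 1.02, 0.850 to 1.24), so the genes of the list did not all differ alike. Of the rule's own genes, Rgs5 (which shortens signals from G protein-coupled receptors) was at 3839 and 2975 CPM and Notch3 (the Notch receptor of mural cells) at 654 and 466 CPM. Kcnj8, the pore of a potassium channel that ATP closes, was under the minimum at 29 UMIs in the control and 15 in the ischemic members, which is 37.7 and 9.20 CPM.

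Within the members, the balance between the contractile and the pericyte genes of the rule is given as a description, since those genes chose the cells. Acta2, Tagln and Myh11 UMIs outnumbered those of Rgs5 and Notch3 in 90 of 119 control members (75.6%) and in 139 of 174 ischemic members (79.9%). For 23 control and 18 ischemic members the contractile share lay within 40 to 60%, near that dividing line. The members with a contractile majority were deeper, with a median of 6257 UMIs in the control and 8926 in the ischemic library against 3388 and 5338 in the others. Thinned to 1000 UMIs per cell, which left out 1 control and 3 ischemic members, the shares were 72.0% and 81.9%. Without the members in which proximal tubule markers passed 1% of UMIs, they were 84.6% and 81.6%. The control share was then the higher, so the order of the libraries is not settled. Pdgfrb, which the division did not use, was at 431 CPM in control members and 411 CPM in the ischemic members with an Rgs5 and Notch3 majority or a tie, against 178 and 190 CPM in those with a contractile majority. Cnn1 was at 8.45 and 0 CPM against 303 and 290 CPM.

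**Figure D1:**
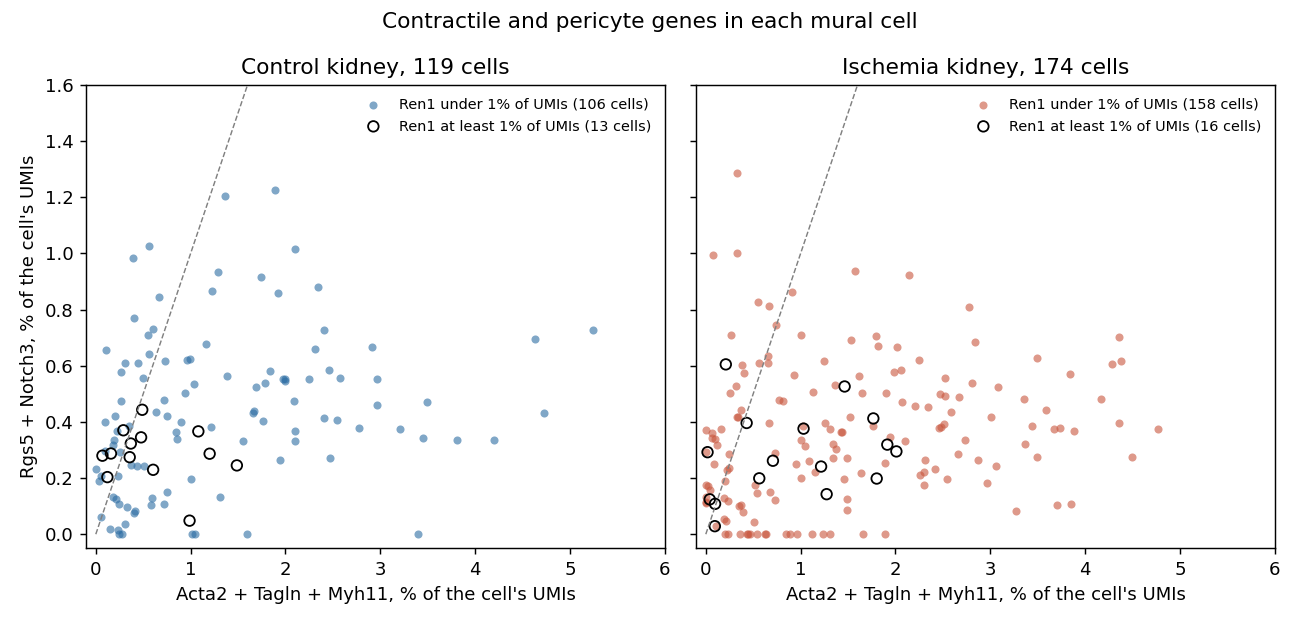
Each point is 1 mural cell, with the share of its UMIs from Acta2, Tagln and Myh11 on the x axis and from Rgs5 and Notch3 on the y axis, both in percent, for the control (left, 119 cells) and ischemic kidney (right, 174 cells). Open circles are the 13 control and 16 ischemic cells with at least 1% of UMIs from Ren1, and the dashed line marks equal shares; the cells spread across it without a gap.

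Renin came from few of the members. Ren1 (chr1:133350510-133360325, mm10) was at 5916 CPM in control members and 5256 CPM in the ischemic members. In the control, 13 members (10.9%, 5.95 to 18.0) had at least 1% of their UMIs from Ren1 and held 94.2% of all its UMIs, and in the ischemic library 16 (9.20%, 5.35 to 14.5) did and held 88.5%. The highest share in a single cell was 18.6% in the control and 25.4% in the ischemic library. Since 3 members held 2824 of 4553 control UMIs and 4411 of 8567 ischemic UMIs, the ratio of 0.888 rested on them, and without the 3 richest members of each library it was 1.14. Over 15 other settings it lay between 0.592, in members with at most 1 UMI of the fibroblast and endothelial genes of the rule, and 2.40, without the cells of highest doublet score, so it has no settled direction. Akr1b7, an aldo-keto reductase made by renin cells, was at 199 and 342 CPM (ratio 1.72, 1.44 to 2.07), and without its 3 richest cells in each library the ratio was 1.34. It was 1.12 in members with at least 10 UMIs and 0.2% of the mural genes, 1.11 in those with at most 1 UMI of the fibroblast and endothelial genes of the rule and 1.01 in those with at least 20 UMIs of the mural genes, so the Akr1b7 ratio rested on the choice of cells. In the Ren1-rich members Acta2 was at 3064 CPM in control members and 3893 CPM in the ischemic library, against 7494 and 8732 CPM in the rest.

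Across all genes, 83 of the 3801 were at least 2-fold higher in the ischemic members (2.18%) and 53 were at least 2-fold lower (1.39%). A level in the members can include free RNA from other cells, so each gene was also set beside all other cells. Of the 2767 genes that were at least as high in the members as in the other cells, taken in the library where the gene was higher, 53 were at least 2-fold higher and 25 at least 2-fold lower.

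**Figure D2:**
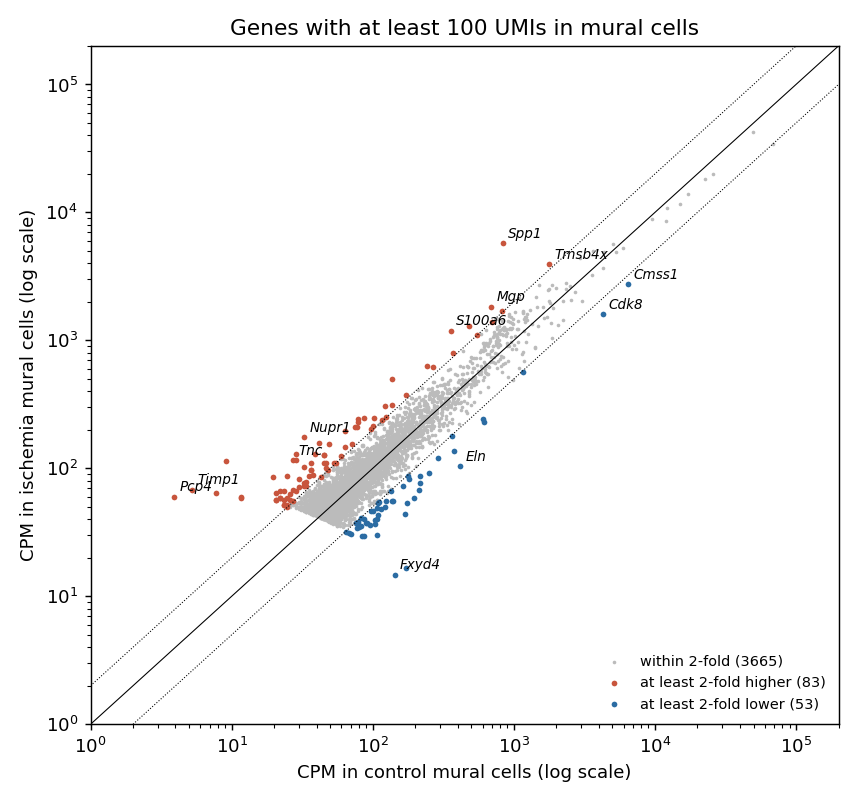
Each point is 1 of 3801 genes, with its CPM in control mural cells on the x axis and in ischemic mural cells on the y axis, both on log scales. The solid line marks equal levels and the dotted lines a 2-fold difference; 83 genes (red) lie above and 53 (blue) below, and Timp1, Tnc, Mgp and S100a6 are among the former and Eln and Cmss1 among the latter.

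Several matrix genes were at least 2-fold higher in the ischemic members. Of 43 genes for matrix, matricellular proteins and proteases, 28 had enough UMIs, 4 were at least 2-fold higher in the ischemic members (Timp1, Tnc, Thbs1 and Mgp) and 1 was lower (Eln), with a median log2 ratio of 0.49, beside 2.18% higher, 1.39% lower and a median of 0.09 over all genes. Timp1, an inhibitor of matrix metalloproteinases (chrX:20870166-20874735, mm10), was at 5.20 CPM in the control, from 4 UMIs in 2 cells, and at 68.1 CPM in the ischemic members, from 111 UMIs in 59 cells (ratio 13.1, 4.98 to 48.9). The 3 richest ischemic cells held 25 of those 111 UMIs, and all 3 had no UMI of Rgs5 or Notch3. The 17 ischemic members without a UMI of either gene held 40 of the 111 Timp1 UMIs, and the 6 such control members held 2 of 4. Mgp, matrix Gla protein, an inhibitor of calcification (chr6:136872435-136875823), was at 687 CPM in control members and 1826 CPM in the ischemic members (ratio 2.66, 2.42 to 2.92). Tnc, tenascin-C, a matricellular protein of injured tissue, was at 27.3 and 116 CPM (ratio 4.25, 2.70 to 7.03), from 6 control and 26 ischemic cells. Thbs1, thrombospondin-1, which activates latent TGF-beta, was at 36.4 and 111 CPM (ratio 3.05, 2.04 to 4.72). All of these were also present in fibroblast-rule cells, 36 in the control and 40 in the ischemic library, chosen by their fibroblast genes in the same way. There Timp1 was at 215 and 2525 CPM, Tnc at 17.5 and 1517 CPM and Mgp at 11766 and 10572 CPM. In the members the fibroblast genes of the rule summed to 105 CPM in control members and 152 CPM in the ischemic library, led by Col1a2 at 71.5 and 90.2 CPM. Among the 88 control and 97 ischemic members with at most 1 UMI of the fibroblast and endothelial genes of the rule, the ratio was 16.4 for Timp1, 4.19 for Tnc, 2.22 for Mgp and 1.76 for Thbs1, so that Thbs1 alone of the 4 was no longer 2-fold apart. Among the 113 control and 157 ischemic members with a UMI of Rgs5 or Notch3, the ratio was 17.9 for Timp1, 3.25 for Mgp, 2.68 for Thbs1 and 1.96 for Tnc, so that there Tnc was within 2-fold.

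Elastin had the lowest ratio of this list, and few cells held its UMIs. Eln (chr5:134702593-134747323), the elastic fibre protein of artery walls, was at 418 CPM in control members and 104 CPM in the ischemic members (ratio 0.248, 0.204 to 0.299). The 3 richest control cells held 275 of 322 UMIs and the 3 richest ischemic cells 74 of 169, and without them the ratio was 0.927. With at most 25% mitochondrial UMIs it was 0.506. The basement membrane genes Col4a1 (ratio 1.42, 1.24 to 1.63) and Col18a1 (1.29, 1.12 to 1.50) and the proteoglycan gene Bgn (1.44, 1.23 to 1.69) were higher by less than 2-fold. Ccn1 and Ccn2, matricellular genes switched on by stretch and injury, were at 255 and 382 CPM and at 269 and 387 CPM. The protease gene Adamts1, which cleaves versican, was at 187 and 355 CPM (ratio 1.90, 1.58 to 2.29), and Adamts4, with 2 UMIs in the control and 62 in the ischemic members, was under the minimum.

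Most inflammatory genes were sparse in these cells. Of 38 genes for cytokines, chemokines and NF-kB feedback, 11 had enough UMIs and 3 were at least 2-fold higher in the ischemic members (Socs3, Lcn2 and Spp1), beside 2.18% of all genes, with a median log2 ratio of 0.65 beside 0.09. Spp1 was the most abundant of the list in both libraries, and the list summed to 2185 CPM in control members and 7860 CPM in the ischemic members, against 3973 and 28348 CPM in the other cells. Socs3, which shuts off signals of the IL-6 family, was at 78.0 CPM in control members and 212 CPM in the ischemic members (ratio 2.72, 2.07 to 3.64), and at 43.9 and 86.4 CPM in the other cells. Osmr, the receptor of oncostatin M, was at 59.8 and 118 CPM (ratio 1.98, 1.43 to 2.80), Il6st, the gp130 receptor shared by that family, at 85.8 and 148 CPM (1.73, 1.31 to 2.31), and Stat3, its transcription factor, at 138 and 210 CPM (1.53, 1.23 to 1.92). None of these 3 passed 2-fold. Il6 itself was at 0 in the 119 control members, where 3 UMIs would be 3.90 CPM, and at 23.9 CPM in the ischemic members, at least 6.14-fold higher. Its 39 ischemic UMIs came from 11 cells (6.32% of the ischemic members), with 29 in the 3 richest. In endothelial-rule cells, chosen by their endothelial genes, 14 of 807 control cells (1.73%) and 53 of 861 ischemic cells (6.16%) had an Il6 UMI. Il1r1, the receptor of IL-1 that the study centred on in myeloid cells, was at 16.9 and 31.9 CPM, from 13 and 52 UMIs, and was under the minimum.

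The promoter of Socs3 held the STAT motif TTCNNNGAA, which reads the same way on both strands. This motif stood in 3 of the 28 genes of the cytokine list that had a promoter in the table (10.7%; Icam1, Socs3 and Tnfaip6) and in 9.55% of all genes of the table. Socs3 is shown, with the motif in capitals and the RefSeq start, which lies 681 bases inside the gene as GENCODE M21 gives it, as the gene of this list that was 2-fold higher in the ischemic members and not lower in them than in the other cells.

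Socs3, chr11:117969317-117969616, strand -: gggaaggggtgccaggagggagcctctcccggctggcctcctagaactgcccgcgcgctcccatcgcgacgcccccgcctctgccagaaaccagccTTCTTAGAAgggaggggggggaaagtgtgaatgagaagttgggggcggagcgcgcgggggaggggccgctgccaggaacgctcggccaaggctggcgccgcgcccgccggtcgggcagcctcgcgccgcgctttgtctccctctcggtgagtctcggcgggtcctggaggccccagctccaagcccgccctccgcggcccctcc

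Spp1 and Lcn2 were 2-fold higher as well, but both were higher in the other cells. Spp1, osteopontin, was at 834 and 5748 CPM in the members and at 3305 and 25696 CPM in the other cells. Lcn2, the tubular injury protein lipocalin-2, was at 28.6 and 130 CPM in the members and at 127 and 1366 CPM in the other cells. Havcr1, the tubular injury marker KIM-1, had 2 UMIs in the control and 73 in the ischemic members, spread over 58 ischemic cells with 7 in the 3 richest. The 7 injured tubule markers summed to 1021 CPM in control members and 6503 CPM in the ischemic members, against 3849 and 30440 CPM in the other cells, so that they were higher in the ischemic library both inside and outside the members. Their part in the level of other genes was not tested.

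Genes of the cytoskeleton, the S100 proteins and the annexins were the list with the most genes past 2-fold. Of 26 genes, 21 had enough UMIs, 7 were at least 2-fold higher in the ischemic members and 0 lower, beside 2.18% and 1.39% of all genes, and the median log2 ratio was 0.83 beside 0.09. S100a6, a calcium-binding protein of activated cells, was at 357 CPM in control members and 1188 CPM in the ischemic members (ratio 3.32, 2.93 to 3.79). S100a11, another of that family, was at 478 and 1296 CPM (ratio 2.71, 2.43 to 3.04). Anxa2, an annexin that binds S100a10 at the membrane, was at 87.1 and 247 CPM (ratio 2.83, 2.18 to 3.73), and S100a10 itself at 79.3 and 243 CPM (3.07, 2.34 to 4.08). Tmsb4x, thymosin beta 4, which holds actin monomers, was at 1780 and 3924 CPM (2.20, 2.08 to 2.34), and Tmsb10 at 122 and 309 CPM (2.53, 2.03 to 3.19). The seventh was Lgals3, a galectin, at 27.3 and 55.8 CPM, which was lower than in the other cells. Lgals3 was under 2-fold in 6 of 15 other settings, with a range of 1.71 to 3.90, and Tmsb10 in 1, with all cells weighted equally, at 1.89. Without the 5% deepest members the ratio was 2.46 for S100a6, 2.13 for Anxa2 and 2.31 for S100a10, each below its interval. S100a11 was then at 2.75 and Tmsb4x at 2.20. Without the cells of highest doublet score S100a6 was at 2.55, Anxa2 at 2.33 and S100a10 at 2.79, all still past 2-fold. A single ischemic member, of 76173 UMIs, held 416 UMIs of S100a6. The same genes were higher in the ischemic library outside the members too: in all other cells S100a6 was at 133 and 710 CPM, S100a11 at 231 and 806 CPM and Tmsb4x at 743 and 1726 CPM. In the 807 control and 861 ischemic endothelial-rule cells, S100a6 was at 1202 and 1850 CPM and Tmsb4x at 3740 and 5560 CPM. Actb, cytoplasmic actin, was at 5023 and 5678 CPM in the members (ratio 1.13, 1.09 to 1.17).

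**Figure D3:**
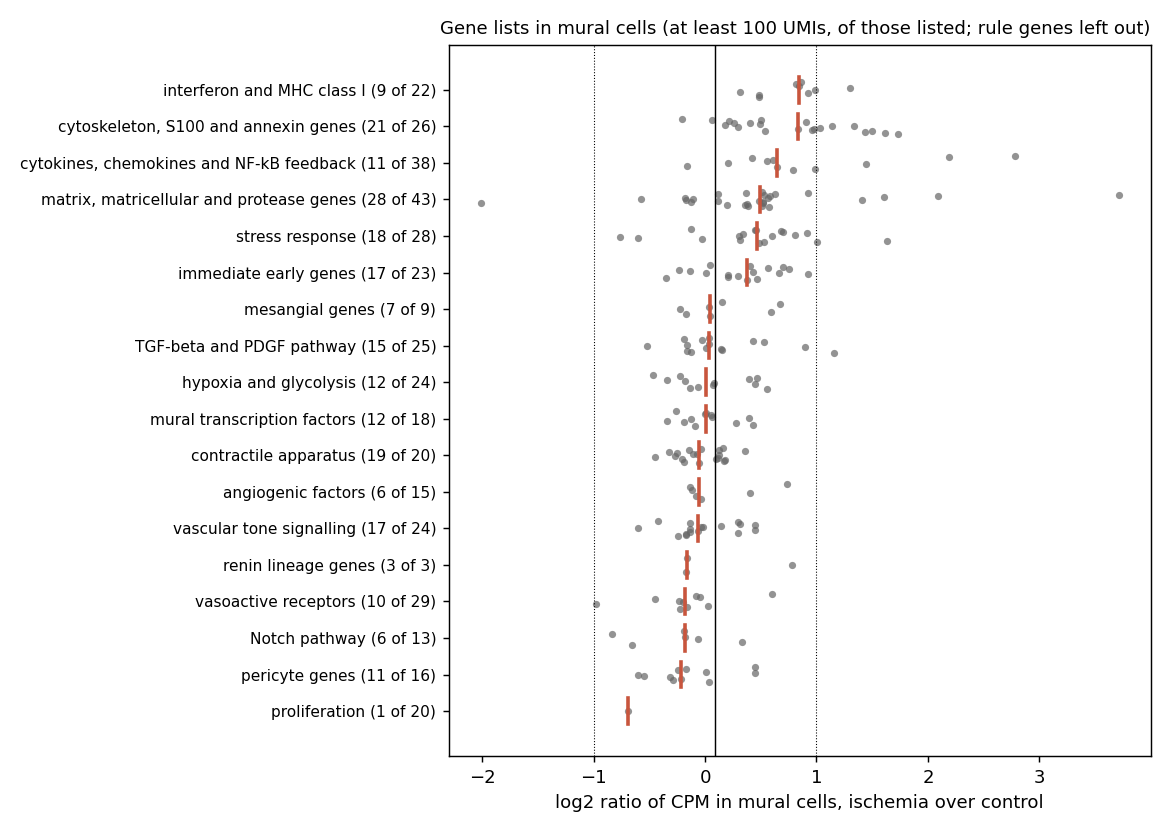
Each grey point is the log2 ratio of CPM, ischemic over control, of 1 gene with at least 100 UMIs in the mural cells, grouped by list and without the genes of the rule, and each red bar is the list's median; the numbers give how many genes of each list had enough UMIs. The solid line is the median of all 3801 genes (0.09) and the dotted lines mark 2-fold; medians run from -0.21 for pericyte genes to 0.84 for interferon and MHC class I genes, leaving aside proliferation with 1 gene.

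Of 22 interferon and antigen presentation genes, 9 had enough UMIs, all 9 had a ratio above 1, as did 60.6% of all 3801 genes, and 1 was at least 2-fold higher, beside 2.18% of all genes, with a median log2 ratio of 0.84. The list summed to 1586 CPM in control members and 2802 CPM in the ischemic members, and to 806 and 1406 CPM in the other cells, so its sum differed by a like factor inside and outside the members. Bst2, tetherin, an interferon-induced antiviral protein, was at 35.1 CPM in control members and 86.5 CPM in the ischemic members (ratio 2.47, 1.63 to 3.87). Ifitm3, which blocks viral entry, was at 633 and 1198 CPM (1.89, 1.71 to 2.10). Ifitm1, of the same family but not in this list, had a ratio of 0.307 and is among the lowest genes below. H2-D1 and B2m, the heavy and light chain of MHC class I, were at 84.5 and 153 CPM and at 104 and 186 CPM. Ifit3, under the minimum, was at 2 control and 70 ischemic UMIs, of which 3 cells held 62.

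Of 28 stress response genes, 18 had enough UMIs and 2 were at least 2-fold higher, Gdf15 and Mt2, beside 2.18% of all genes, with a median log2 ratio of 0.47. Gdf15, a stress cytokine, was at 20.8 and 64.4 CPM (3.10, 1.82 to 5.62), with 77 of its 105 ischemic UMIs in 3 cells, and was at 57.5 and 149 CPM in the other cells. Its ratio was 1.06 without the 5% deepest members, 1.65 without the cells of highest doublet score and 1.61 with all cells weighted equally. Without the 3 richest cells of each library it was 3.47. Mt2, a metallothionein, had a ratio just past 2 and was under 2-fold in 6 of 15 other settings, with a range from 1.45 in members with a UMI of Rgs5 or Notch3 to 3.89 without the cells of highest doublet score. The chaperone gene Hspa5 of the endoplasmic reticulum was at 268 and 469 CPM (1.75, 1.50 to 2.06), while the heat shock gene Hspa1a was at 225 and 148 CPM (0.658, 0.539 to 0.804). Chaperone genes thus lay on both sides of 1. Of 23 immediate early genes, which are switched on within minutes and also by tissue digestion, 17 had enough UMIs, 0 were 2-fold apart, beside 3.58% of all genes, and the median log2 ratio was 0.38. Egr1 was the furthest apart, at 434 and 823 CPM (1.90, 1.68 to 2.15; 1.39 to 2.16 over 15 other settings), and Fos was at 1987 and 2585 CPM (1.30, 1.23 to 1.38). Both are transcription factors of the early response.

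The next lists hold genes by which these cells sense and set vascular tone, and their counts stand beside 3.58% of all genes 2-fold apart, a share near which a count of 0 in lists of this size lies. Of 29 receptors for vasoactive signals, 10 had enough UMIs, 0 were 2-fold apart and the median log2 ratio was -0.18. Agtr1a, the angiotensin II receptor, was at 147 CPM in control members and 126 CPM in the ischemic members (ratio 0.857, 0.678 to 1.09), and Ednra, the endothelin receptor, at 220 and 196 CPM (0.894, 0.740 to 1.08). Adra1a, an adrenergic receptor, was at 135 and 68.7 CPM (0.509, 0.386 to 0.671), just inside 2-fold. It was past 2-fold in 8 of 15 other settings, such as 0.494 with mitochondrial UMIs left out, 0.473 without the cells of highest doublet score and 0.437 with all cells weighted equally. Agtr1b, the second angiotensin receptor gene of rodents, was under the minimum with 28 and 23 UMIs, or 36.4 and 14.1 CPM. Of 24 genes outside the rule that carry tone signals inside the cell, 17 had enough UMIs, 0 were 2-fold apart and the median was -0.06. Among them Cacna1c, the L-type calcium channel that lets in the calcium for contraction, was at 660 and 436 CPM (0.660, 0.588 to 0.741). Gucy1a1, a subunit of the receptor for nitric oxide, was at 264 and 223 CPM, and Prkg1, the kinase it acts through, at 1725 and 1528 CPM (0.886, 0.828 to 0.947).

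Of 13 genes of the Notch pathway outside the rule, 6 had enough UMIs and 0 were 2-fold apart, with a median of -0.18, again beside 3.58% of all genes. Hey2, a Notch target in arteries, was at 113 and 63.2 CPM (0.559, 0.416 to 0.752) and Notch2 at 135 and 85.9 CPM (0.636, 0.490 to 0.827), while Jag1, a Notch ligand, was at 90.9 and 114 CPM. Of 25 genes of the TGF-beta and PDGF pathways, 15 had enough UMIs and 1 was 2-fold apart, beside the same share, with a median of 0.03. This was the ligand Tgfb1, at 23.4 and 52.1 CPM (2.23, 1.33 to 3.94), and its ratio was 1.70 in the members with at most 1 UMI of the fibroblast and endothelial genes of the rule and 1.92 without the 5% deepest members. Its receptor Tgfbr2 was at 53.3 and 58.9 CPM. In the lists of mural transcription factors (12 of 18), mesangial genes (7 of 9), angiogenic factors (6 of 15) and hypoxia and glycolysis (12 of 24 with enough UMIs), 0 genes were 2-fold apart, near the share over all genes, and the medians were 0.01, 0.04, -0.06 and 0.01. Of 20 proliferation genes only Ccnd1, cyclin D1, had enough UMIs, at 170 and 106 CPM.

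Beyond the lists, the 15 genes with the highest ratios were ranked by the lower bound of their interval among genes at least as high in the members as in the other cells. Besides those already given they were Pcp4, Nupr1, Fxyd5, C430049B03Rik, Sbno2, Celf2, Hbegf, Adamts5 and Prkca. Fxyd5, a regulator of the sodium pump, was at 41.6 CPM in control members and 158 CPM in the ischemic members (ratio 3.79, 2.62 to 5.66), from 87 ischemic cells. Sbno2, a transcriptional regulator induced by IL-6 family signals, was at 19.5 and 85.3 CPM (4.38, 2.56 to 8.03), from 66 ischemic cells. Adamts5, an aggrecan protease, was at 79.3 and 232 CPM (2.93, 2.23 to 3.90), and at 12.3 and 7.43 CPM in the other cells. These 3 were spread over many cells. Others were held by few: 3 cells had 87 of 98 ischemic UMIs of Pcp4, 209 of 284 of Nupr1, 70 of 96 of Celf2 and 58 of 98 of C430049B03Rik. In the members with a UMI of Rgs5 or Notch3 the ratio of Pcp4, at 15.4 in all members, was 2.02. Hbegf, a growth factor of the EGF family, had 110 of 212 in 3 cells and was at 39.0 and 130 CPM. For Prkca, a protein kinase C, 3 cells had 146 of 251, and its ratio was 3.12, or 1.80 without the 3 richest cells of each library. In the members with at most 1 UMI of the fibroblast and endothelial genes of the rule, the ratio of Prkca was 0.805 and that of Nupr1, a stress-induced chromatin protein at 5.36 in all members, was 1.37.

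The 15 genes with the lowest ratios, ranked by the upper bound in the same way, were Fxyd4, Eln, Cdk8, Ifitm1, Cmss1, Gm15564, Ephx3, Cenpa, Mtss2, Hist1h4d, Tesc, Col19a1, Ckb, Tcap and Glp1r. Some were genes largely of these cells. Glp1r, the receptor of the incretin GLP-1, was at 123 CPM in control members and 55.8 CPM in the ischemic members (ratio 0.452, 0.336 to 0.609), and at 0.0968 and 0.0393 CPM in the other cells. Col19a1, a minor collagen of basement membranes, was at 114 and 48.5 CPM (0.424, 0.309 to 0.581), and Ephx3, an epoxide hydrolase, at 104 and 36.8 CPM (0.354, 0.249 to 0.501). Tcap, known as a sarcomere protein of striated muscle, was at 90.9 and 37.4 CPM (0.411, 0.287 to 0.588). Each of these 4 had UMIs in at least 34 control cells. Without the 5% deepest members the ratio was 0.539 for Glp1r and 0.524 for Col19a1, and Tcap was at 0.528 in the members with at most 1 UMI of the fibroblast and endothelial genes of the rule, so that each of these 3 was within 2-fold in 1 of 15 other settings.

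For Cmss1, Cdk8 and Gm15564 the ratio was also below 0.5 in the pooled other cells. Cmss1 was at 6438 and 2756 CPM in the members (0.428, 0.411 to 0.446) and at 4431 and 1862 CPM in the other cells, and Cdk8, a kinase of the Mediator complex, was at 4295 and 1593 CPM in the members and at 2740 and 1009 CPM in the other cells. Gm15564 was at 252 and 91.4 CPM in the members and at 162 and 67.3 CPM outside. Fxyd4, a gene of collecting duct cells, had 97 of its 110 control UMIs in 3 members, and without the 3 richest cells of each library its ratio went from 0.103 to 0.646. Ckb, brain-type creatine kinase, went from 0.494 to 0.629 in the same way. It stayed 2-fold lower in 10 of 15 other settings, with a range of 0.440 to 0.715.

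**Figure D4:**
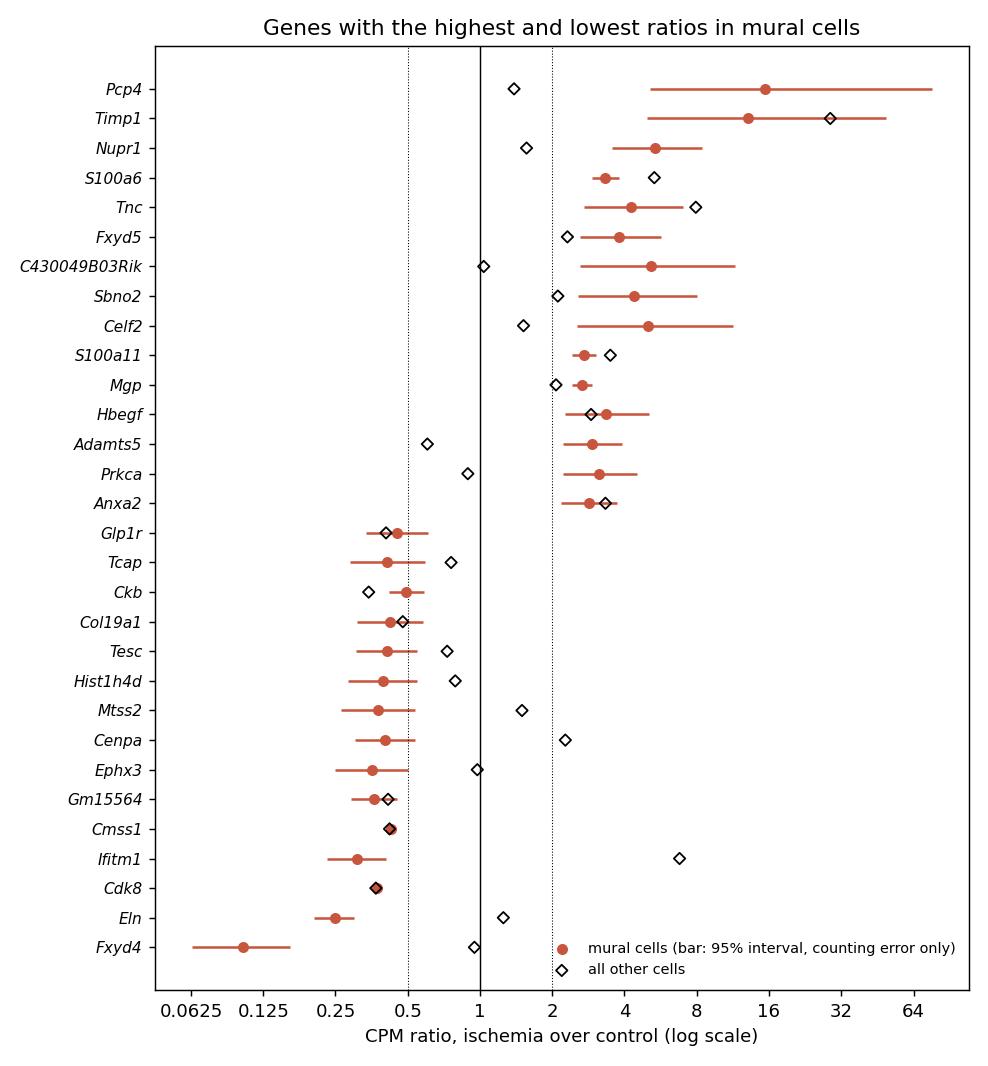
Ratio of CPM, ischemic over control, on a log axis for the 15 highest and 15 lowest genes, with filled circles for mural cells, bars for their 95% intervals (counting error only) and open diamonds for all other cells. Cmss1, Cdk8 and Gm15564 sit at nearly the same ratio in both, while Adamts5 and Ifitm1 lie on opposite sides of 1.

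**Figure D5:**
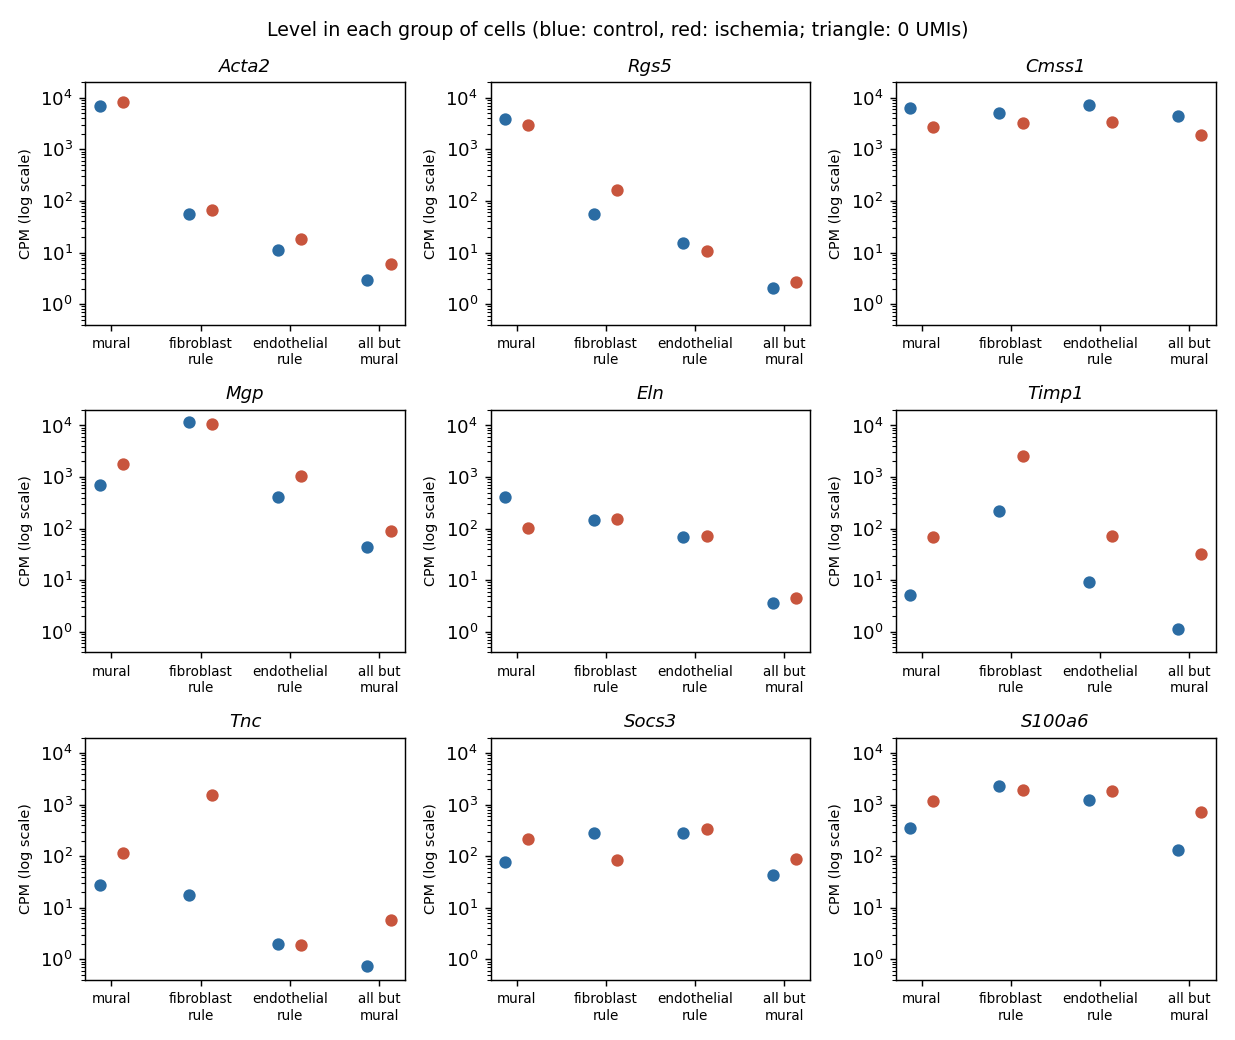
CPM on a log axis of 9 genes in mural cells, fibroblast-rule cells, endothelial-rule cells and all cells but the mural ones, with blue for the control and red for the ischemic kidney; each point is a sum over all cells of that kind in 1 library, so there is no error bar. Acta2 and Rgs5 chose the mural cells and are shown for reference. Mgp, Timp1 and ischemic Tnc in fibroblast-rule cells are above those in mural cells, and Cmss1 is lower in the ischemic library in all 4.

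The most abundant genes of the members that were at least 5 times as high as in the other cells of both libraries, from 455 such genes without mitochondrial and ribosomal ones, were led by Acta2 and Ren1, followed by Tagln, Myl6, Tpm2, Crip1, Rgs5, Tpm1, Myl9, Cald1, Myh11, Fos, Sparcl1, Mylk and Prkg1. Acta2, Tagln, Rgs5 and Myh11 are there by the rule that chose the cells. Of the other 11, Myl6, Tpm2, Tpm1, Myl9, Cald1 and Mylk encode myosin light chains or proteins that act on actin or myosin. Sparcl1, a secreted matricellular protein, was at 1816 CPM in control members and 1972 CPM in the ischemic members (ratio 1.09, 1.02 to 1.16), and Crip1, a small zinc-binding LIM protein of arterial muscle, at 3606 and 3224 CPM (0.894, 0.854 to 0.937). Over 15 other settings the ratio of Crip1 lay between 0.818 and 1.11, so it has no settled direction. None of the 11 was 2-fold apart.

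Transcripts of other kidney cells were present among the members and differed between libraries. The 13 proximal tubule markers summed to 6348 CPM in control members and 3833 CPM in the ischemic members, against 25862 and 18836 CPM in the other cells, with Gpx3 the most abundant at 2244 and 1449 CPM. Of the 9 with enough UMIs, 5 were at least 2-fold lower in the ischemic members, beside 1.39% of all genes, such as the phosphate transporter gene Slc34a1 at 377 and 136 CPM. The 4 endothelial markers that the rule did not use, Cdh5, Egfl7, Ehd3 and Tie1, summed to 29.9 CPM in control members and 91.4 CPM in the ischemic members, against 83.4 and 112 CPM in the other cells, with Egfl7 and Tie1 at 0 in the control members. The 5 that the rule used, which it held below the mural sum in each cell, are given as a description and summed to 65.0 and 222 CPM, led by Emcn at 58.5 and 126 CPM. In the ischemic members the 42 UMIs of Kdr came from 6 cells, 39 of them in 3. The ratios of S100a6, S100a11 and Socs3 were 4.20, 3.11 and 2.18 in the members with at most 1 UMI of the fibroblast and endothelial genes of the rule, and 3.49, 2.71 and 2.65 without the members in which proximal tubule markers passed 1% of UMIs. Ratios of 42 genes that had enough UMIs and were 2-fold apart were recomputed, with Slc34a1 not among them. Of these, 35 stayed 2-fold apart under the first of these settings and 40 under the second. Among them were Anxa2 at 2.88 and 3.22 and Tmsb4x at 2.44 and 2.17. Other settings gave lower ratios, such as 2.46 for S100a6 and 2.13 for Anxa2 without the 5% deepest members.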

How the data were processed

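scRNAseq data of 1 control and 1 ischemic mouse kidney were analysed. The authors deposited raw UMI counts per gene and barcode for each library, made with Cell Ranger 7.0.0 on mm10 per the submitters' processing notes and not normalized. Whether intronic reads were counted was not given in the sources used here. Of 15110 and 15257 barcodes, those with 200 or more genes, a total of 500 to 150000 UMIs and no more than 55% of UMIs from mitochondrial genes were kept.

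UMIs were summed over the members of each library and scaled to CPM. Levels carry exact Poisson intervals and ratios carry intervals from the exact binomial split of UMIs, all at 95%. With 1 library per condition there was no test. A gene was counted when its ratio was at least 2 or at most 0.5 with at least 100 UMIs over both libraries, leaving out the 15 genes of the rule. Genes named were those of the lists, the 15 highest and 15 lowest by interval bound, and the 15 most abundant. For duplicate symbols the row with more UMIs was used. Scrublet in scanpy 1.11.5 called 0 cells as doublets in either library and had thus not worked, so doublets were left in. An alternative removed cells with scores above a cutoff set for the top 8%. Cells at the cutoff itself were kept, so it removed 900 of 12586 control and 1010 of 13116 ischemic cells, under 8% of each. Python 3.11.15, numpy 2.4.6, scipy 1.17.1 and pandas 2.3.3 were used, and the calculations were tested on simulated data. The positions of genes came from GENCODE M21. The members, lists and comparisons were chosen with earlier results of these data known.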

Additional observations from a re-analysis of the deposited data

How the results depend on the processing

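Ratios of 63 genes were recomputed under 15 other settings. Of 943 values, 925 kept the direction of the reported ratio and 890 its side of 2-fold. Of the 42 recomputed genes that had at least 100 UMIs and were 2-fold apart, 24 stayed so in every setting with a value. Turned from called to the other side of 1 was 1 of them, Prkca, at 0.805 in members with at most 1 UMI of endothelial and fibroblast genes. In those members, 97 in the ischemic library (0.699% of cells in the control and 0.740% in the ischemic library), 55 genes were at least 2-fold higher and 29 lower, with fewer cells and 1981 genes tested. With a minimum of 50 UMIs per gene these counts were 212 and 119, with 200 UMIs 44 and 20, and among genes at or above the level of other cells 53 and 25. Leaving out, for each gene, the 3 members per library with most of its UMIs gave 144 higher. This removes a larger share of the 119 control than of the 174 ischemic members. That setting, the one without Ren1-rich members, the one with a UMI of Rgs5 or Notch3 (68 higher and 46 lower) and the one with at least 20 UMIs of the mural genes were chosen after seeing the data. Timp1 and Pcp4 have no value without their 3 richest cells, since the control was then at 0.

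The share of mural cells moved with the cells kept, given here for the control and then the ischemic library. It was 1.14% and 1.50% with at most 25% mitochondrial UMIs and 1.31% and 2.17% with at least 1000 UMIs. It was 0.771% and 1.10% with at least 20 UMIs of the mural genes, and 0.723% and 1.20% without members over 1% proximal tubule markers. In the last of these settings the contractile majority was 84.6% of control and 81.6% of ischemic members. There the control share was thus the higher, unlike among all members. With at least 20 UMIs of the mural genes the shares were 85.6% and 88.2%. Leaving mitochondrial UMIs out of the total gave 73 higher and 62 lower genes, and centring on the median gave 69 and 65, against 83 and 53. No paired analysis was possible because each condition had 1 library. Counting error limits genes under 100 UMIs, and no value here shows how far 2 control kidneys would differ.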
